A study of Mus musculus with 32 samples.

Results

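The miR-183 cluster is a set of 3 neighbouring microRNA genes, and 4 of its mature products were followed here from undifferentiated mouse embryonic stem (ES) cells to cardiomyocytes. The members were found by name as miR-183, miR-183* (the strand from the other arm of the same hairpin), miR-96 and miR-182. All 4 are among the 608 miRNAs that are on both array platforms of the study, out of 609 on the Affymetrix GeneChip miRNA array and 710 on the Febit Geniom Biochip. The rule uses names and no measured value. In the study's list of detected miRNAs, miR-182 is present on both platforms, miR-183 and miR-183* on Affymetrix only, and miR-96 on neither.

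All cells came from 1 transgenic clone of the D3 ES line, αPIG44, in which the cardiac α-MHC promoter drives both a puromycin resistance gene and EGFP. Day 0 was undifferentiated ES cells, which were kept on mouse embryonic fibroblast feeder cells with LIF and then grown on gelatin without feeders before RNA was taken. Days 12, 19 and 26 were Cor.At cardiomyocytes from the same clone, formed through embryoid bodies, selected with puromycin and then kept in culture. There were 2 cultures, a and b, at each day, and RNA of each went onto both arrays. With 2 normalizations per platform this gave 4 data sets of 8 arrays. Every group carries the transgene, and results from 1 clone do not extend to other ES lines without further data. Titles and time labels were used to assign arrays to days, because the culture text of most day 19 and day 26 records describes another schedule than the study's methods.

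The 3 genes are transcribed together as 1 primary RNA, from which each hairpin is cut and loaded as a mature miRNA. The cluster is best known from sensory cells, where photoreceptors and inner ear hair cells depend on it, and changes in the seed of miR-96 cause hearing loss in mouse and human. miR-182 and miR-96 are known to repress FoxO transcription factors in several cell types. The seed, bases 2 to 8 of the mature miRNA, is the main determinant of which messenger RNAs are bound.

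The mature sequences are shown because close relatives within 1 cluster can be hard for array probes to separate. They were taken from RefSeq (GRCm38.p6), where 4 of 4 array names had a match, and they lie on the minus strand of chromosome 6. The seed is in capitals.
miR-183: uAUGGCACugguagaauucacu
miR-96: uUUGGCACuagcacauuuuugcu
miR-182: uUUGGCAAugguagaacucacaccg
miR-183*: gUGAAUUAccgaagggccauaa
No 2 members had the same seed. miR-96 shared 6 of 7 seed positions with miR-183 and 6 of 7 with miR-182, and miR-183 shared 5 of 7 with miR-182. Over their first 22 bases miR-183 and miR-182 were identical at 18 positions, with a longest shared run of 8 bases, while miR-183 and miR-96 were identical at 13. miR-183* matched miR-183 at 3 of 22 positions. How far the array probes cross-react between miR-183 and miR-182 was not tested. Of other mouse miRNAs in the reference, only miR-1271-5p had the seed of a member (that of miR-96), and it is on neither array.

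The hairpin of miR-183 is shown because both of its arms were measured, in capitals here, at chr6:30169668-30169737 (GRCm38.p6, minus strand).
Mir183: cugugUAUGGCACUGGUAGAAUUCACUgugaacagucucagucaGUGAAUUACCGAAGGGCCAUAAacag
The 3 hairpins span 3820 bases. Mir96 follows Mir183 after 116 bases, and Mir182 follows Mir96 after 3453 bases, at chr6:30165918-30165992. All 3 lie inside the long noncoding RNA gene Mirc35hg (chr6:30158640-30174125), between Nrf1 and Ube2h. The start of Mirc35hg is shown because the 3 hairpins lie inside this gene. The window runs from 250 bases before to 50 bases after its start (chr6:30174076-30174375, minus strand, read in the direction of transcription). CACCTG, the kind of E-box that ZEB repressors bind, and CCAAT are in capitals.
Mirc35hg: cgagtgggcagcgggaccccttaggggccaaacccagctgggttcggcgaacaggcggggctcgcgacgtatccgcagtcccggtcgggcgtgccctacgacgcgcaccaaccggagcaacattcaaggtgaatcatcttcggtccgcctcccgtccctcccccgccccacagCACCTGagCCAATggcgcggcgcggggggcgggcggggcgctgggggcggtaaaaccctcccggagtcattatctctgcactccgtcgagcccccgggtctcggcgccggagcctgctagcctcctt
Both strands were searched. CACCTG was found 1 time, and 20.2% of 32851 promoter windows of the same length hold it. CANNTG, which includes CACCTG, was found 2 times (in 72.3% of windows), CCAAT 1 time (37.4%) and GGGCGG 4 times over both strands (35.7%). The exact letters TCAAGGTCA, the site of the ES-cell factor Esrrb, were not in this window (0.423% of windows hold them). The window does hold TCAAGGTGA, with G in place of the last C. Inexact matches were not searched for, and their share of windows was not counted. These are matches of letters, and binding was not measured.

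On the Affymetrix arrays, miR-182, miR-183 and miR-183* were high in ES cells and lower in cardiomyocytes. All values that follow are log2 values after variance stabilizing normalization (VSN), a scale that follows log2 at high signal and becomes linear near background, so that changes of dim miRNAs are not plain ratios. miR-182, the brightest member, had 9.17 and 9.56 in cultures a and b at day 0, 5.79 and 8.41 at day 12, 4.07 and 6.95 at day 19, and 5.36 and 6.26 at day 26. Both ES cultures lay above all 6 cardiomyocyte cultures, by 0.76 at the closest pair. At day 0 miR-182 ranked in percentiles 98.2 to 98.4 of the 609 miRNAs on the array, and at days 12 to 26 in percentiles 69.1 to 93.1.

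miR-183 had 6.78 and 7.39 at day 0, 4.02 and 6.24 at day 12, 2.04 and 4.84 at day 19, and 3.53 and 4.94 at day 26. miR-183*, from the other arm of that hairpin, had 4.71 and 5.20 at day 0, 1.77 and 4.04 at day 12, 0.55 and 2.65 at day 19, and 2.15 and 2.29 at day 26. For both, the day 0 cultures again lay above every later culture, and the lowest value of all was culture a of day 19. The share of all miRNAs with such a separation was not counted, so it is not known to be particular to the members. Array medians lay between 2.26 and 2.71, so miR-183* ended close to or below the median miRNA of its array, whereas miR-182 remained above it on all 8 arrays.

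miR-96 was dim throughout on the Affymetrix arrays. It had 2.35 and 1.61 at day 0, 1.15 and 0.47 at day 12, 0.38 and 1.16 at day 19, and 0.55 and 0.83 at day 26. Its day 0 values were above all later ones by at least 0.45. With these Affymetrix VSN values it ranked no higher than percentile 51.4 at day 0 and between percentiles 2.3 and 15.1 at days 12 to 26. Hence, of the mature miRNAs cut from 1 primary RNA, miR-182, miR-183 and miR-183* were well above the array median in ES cells and miR-96 was not. Probes differ in brightness, so this order of signals is not an order of abundance.

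**Figure D1:**
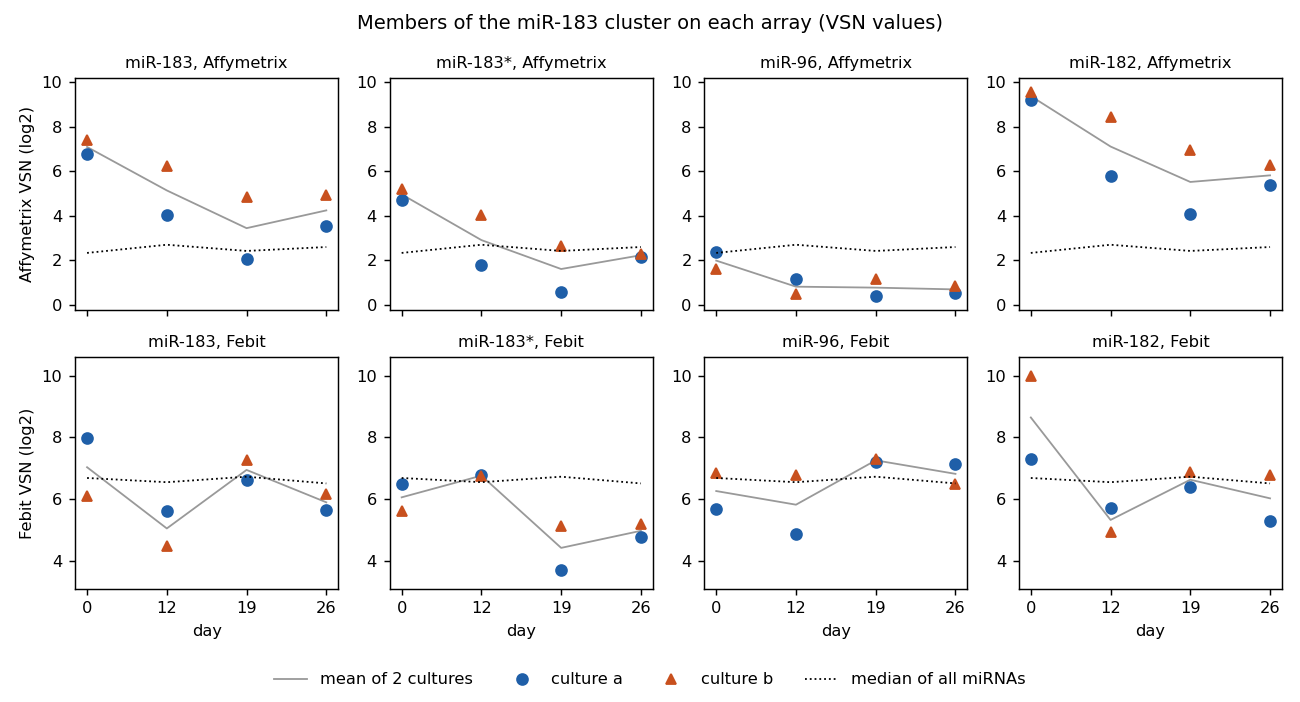
VSN values (log2) of each member by day on Affymetrix (top) and Febit (bottom), with culture a as circles, culture b as triangles, their mean as a grey line and the mean of the array medians as a dotted line. On Affymetrix miR-182 started at 9.17 and 9.56 and lay between 4.07 and 8.41 afterwards. On Febit, among the members, only miR-182 had both day 0 values above all later ones. The share of all miRNAs with such a separation was not counted.

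The question for each day was how far the cardiomyocytes differed from the ES cells. limma was fitted over the 485 miRNAs listed as detected on at least 1 platform, with p-values adjusted over all of them by Benjamini-Hochberg and calls made at an adjusted p under 0.05. miR-182, miR-183 and miR-183* were tested in this fit, and miR-96 only in a fit without the detection filter. The 3 comparisons share the day 0 arrays. With the Affymetrix VSN values, 0 of the 3 tested members were called lower at day 12, 3 of 3 at day 19 and 3 of 3 at day 26. Of all tested miRNAs, 6.19%, 10.9% and 10.3% were called lower at those days, and the median change over all of them was 0.34, 0.22 and 0.41.

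At day 19, miR-182 was lower by 3.85 ± 0.94 (log2 change of -3.85, SE, n = 2 cultures per day, limma adjusted p = 0.00706). At day 26 its change was -3.56 ± 0.94 (limma adjusted p = 0.0098), an 11.8-fold difference. miR-183 changed by -3.65 ± 0.91 at day 19 and -2.85 ± 0.91 at day 26 (limma adjusted p = 0.00846 and 0.0262). miR-183* changed by -3.35 and -2.73, each with an SE of 0.78 (limma adjusted p = 0.00532 and 0.0143). At each of these days the 3 changes differed from each other by less than the SE of miR-182. At day 19 miR-182 changed by -4.05 without culture a of day 0 and by -3.66 without culture b. miR-183 changed by -3.95 and -3.34 in those fits, and miR-183* by -3.60 and -3.10. The SE of miR-182 was 1.33 in both fits, against 0.94 with all arrays. Fewer members were then called, so the calls, more than the changes, depended on the day 0 arrays. Without culture a of day 19 the changes at day 19 were -2.42, -2.25 and -2.30 for miR-182, miR-183 and miR-183*. Without culture a of day 26 those at day 26 were -3.11, -2.14 and -2.66. Fewer members were called in these fits too.

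At day 12 the changes were -2.26 ± 0.94 for miR-182, -1.95 ± 0.91 for miR-183 and -2.05 ± 0.78 for miR-183*, and none was called (limma adjusted p = 0.0886, 0.132 and 0.0657, and 0.0338 unadjusted for miR-182). This result depended on the setting. Of the alternatives that follow, the share of all tested miRNAs called lower was counted only for centred arrays. All 3 were called with quantile normalization, with only the arrays of the days compared, and without culture b of day 12 or either culture of day 19. When each array was centred on its median, all 3 were also called, beside 15.1% of all tested miRNAs called lower, and calls in the lower direction then made up 73 of 154 in place of 30 of 157. Centring moved the median change over all tested miRNAs from 0.34 to -0.43. Between days 12, 19 and 26 none of the members was called on Affymetrix, where 0 to 20 of the 485 miRNAs were called with VSN values.

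The second normalization of the same Affymetrix arrays, robust multi-array analysis (RMA), gave larger changes for miR-182 and miR-183. Those of miR-183* and miR-96 were smaller than with VSN values. miR-182 had 11.0 in both cultures at day 0 (11.03 and 11.05), 6.11 and 8.63 at day 12, 5.12 and 7.22 at day 19, and 5.50 and 6.13 at day 26. The gap between the lower ES culture and the highest cardiomyocyte culture was 2.40. miR-182 changed by -3.67 ± 0.94 at day 12, -4.87 ± 0.94 at day 19 and -5.23 ± 0.94 at day 26 (limma adjusted p = 0.0246, 0.00668 and 0.00456), which are 12.7-fold, 29.2-fold and 37.4-fold differences.

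miR-183 had RMA values of 8.44 and 8.87 at day 0, 4.92 and 6.44 at day 12, 4.23 and 5.49 at day 19, and 4.60 and 5.21 at day 26. It changed by -2.97, -3.79 and -3.75, each with an SE of 0.60 (limma adjusted p = 0.0094, 0.00281 and 0.00279). miR-183* went from 6.40 and 6.45 at day 0 to values between 3.81 and 4.90, and changed by -1.95, -2.36 and -2.22, each with an SE of 0.30 (limma adjusted p = 0.00316, 0.00111 and 0.00127). All 3 tested members were thus called lower at all 3 days, beside 15.7%, 18.4% and 20.4% of all tested miRNAs called lower. Without culture b of day 0, 1 of them was called at day 12, and without culture a of day 0 or of day 12 it was 2.

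miR-96 was not called in any of the 4 data sets. In the fit over all 608 shared miRNAs its Affymetrix VSN change was -1.17, -1.21 and -1.29 at days 12, 19 and 26, each with an SE of 0.49 (limma adjusted p = 0.109, 0.0936 and 0.0684). With RMA values the changes were -0.26, -0.31 and -0.31, each with an SE of 0.15. On Febit VSN they were -0.44, 1.0 and 0.56, each with an SE of 0.76, so the sign differed between days. On Affymetrix VSN the 95% interval at day 26, not adjusted for the number of miRNAs, ran from -2.37 to -0.22 (limma unadjusted p = 0.0223).

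**Figure D2:**
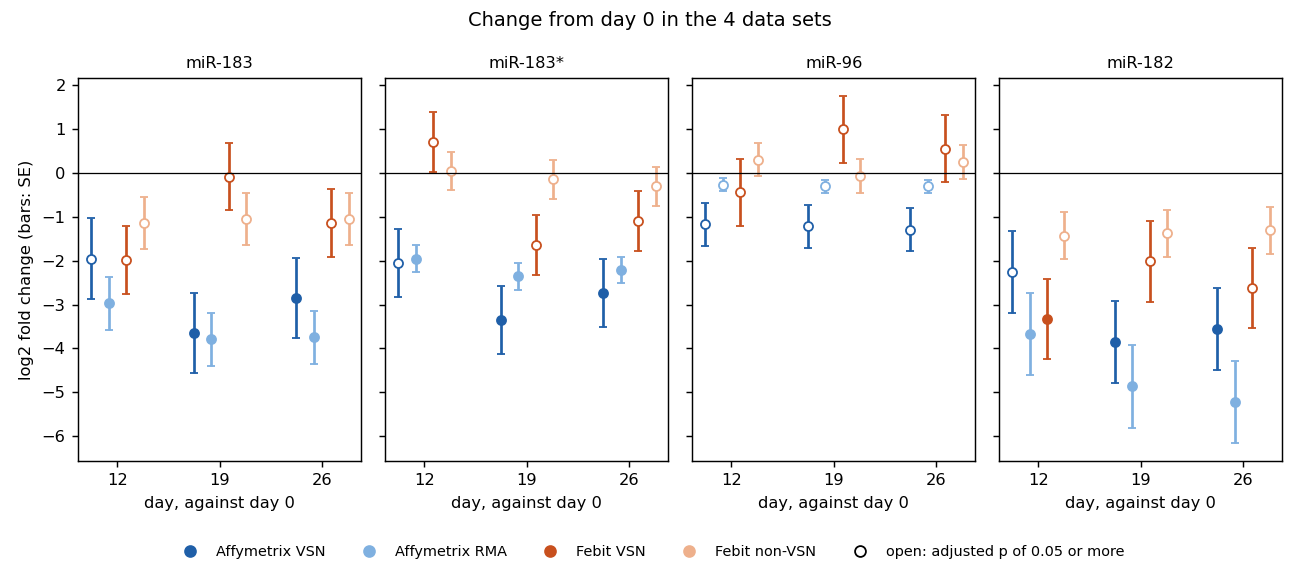
Log2 change from day 0 with its SE for each member at days 12, 19 and 26 in the 4 data sets, with filled points for limma adjusted p under 0.05. Filled points are Affymetrix points of miR-183, miR-183* and miR-182, plus miR-182 on Febit VSN at day 12 (-3.32), and all points of miR-96 are open.

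On the Febit arrays miR-182 was the member whose ES cultures both stood above the cardiomyocytes. It had VSN values of 7.29 and 9.99 at day 0, 5.70 and 4.94 at day 12, 6.37 and 6.87 at day 19, and 5.27 and 6.77 at day 26. Both ES cultures were above the later ones by at least 0.42, but they differed from each other by 2.70. The share of all miRNAs on Febit with such a separation was not counted. miR-182 changed by -3.32 ± 0.91 at day 12 (limma adjusted p = 0.0388), and was the 1 member called of the 3 tested, beside 8.45% of all tested miRNAs called lower. Its changes of -2.02 ± 0.91 at day 19 and -2.62 ± 0.91 at day 26 were not called (limma adjusted p = 0.217 and 0.105), and 2.47% and 2.27% of all tested miRNAs were called lower there. Without culture b of day 0 the day 12 change of miR-182 was -1.97 and was not called (limma adjusted p = 0.112), while miR-183 was (-2.92, limma adjusted p = 0.0307). Without either culture of day 12, or with arrays centred on their medians, none of the members was called at that day. Without culture a of day 0 miR-182 was called also at days 19 and 26.

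miR-183 had Febit VSN values of 7.96 and 6.10 at day 0, 5.61 and 4.47 at day 12, 6.62 and 7.26 at day 19, and 5.63 and 6.15 at day 26. The groups overlapped, and the changes of -1.98, -0.09 and -1.14 (SE 0.77) were not called. miR-183* had 6.50 and 5.60 at day 0, 6.78 and 6.73 at day 12, 3.69 and 5.14 at day 19, and 4.76 and 5.17 at day 26. Against day 0 its changes of 0.70, -1.64 and -1.08 (SE 0.68) were not called, whereas day 19 was lower than day 12 by 2.34 (log2 change of -2.34, limma adjusted p = 0.0484), beside 3.3% of all tested miRNAs called lower in that comparison. This call is for a miRNA that the study does not list as present on Febit. Its raw medians were 992 and 992 at day 12 (array medians 968 and 984) and 768 and 840 at day 19 (944 and 928). On Affymetrix VSN the change from day 12 to day 19 was -1.30 and was not called.

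In the second Febit data set, background corrected and quantile normalized without VSN, none of the members was called at any day, beside 1.86%, 2.27% and 2.47% of all tested miRNAs called lower. miR-182 had 8.46 and 10.22 at day 0 and 7.60 to 8.29 at the later days, with changes of -1.43, -1.37 and -1.31 (SE 0.54) that had unadjusted p-values of 0.0217, 0.0265 and 0.0329 from limma. miR-183 had 10.08 and 8.0 at day 0 and 7.42 to 8.38 later. In this data set the array titled day 12 a followed the raw array of day 19 b and the reverse (rank correlation across miRNAs of 1 with the other and 0.198 with its own), whereas all 8 Febit VSN arrays followed their own. With those arrays exchanged, none of the members was called either, and leaving out either culture of day 0 gave 1 called member at each day.

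The deposited raw Febit intensities set these members against the median signal of each array. Each miRNA has 8 features per array, and for miR-182 the median feature was 992 and 1957 at day 0 (cultures a and b), 928 and 876 at day 12, 920 and 936 at day 19, and 876 and 252 at day 26. The median over all 710 miRNAs was 928 to 992 on 7 arrays and 228 on the array of day 26 b, which was dimmer as a whole. Hence miR-182 was 2.10 times the array median in 1 ES culture and between 0.88 and 1.11 times the array median on the other 7 arrays.

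On the array of day 0 b all 8 features of miR-182 were between 1881 and 2009. On the array of day 0 a, from the other ES culture, they ran from 960 to 1760, with a median of 992. On the array of day 26 a they ran from 760 to 2473, with a median of 876, so that 1 of the features stood far above the rest. For miR-182 the features thus lay closest together on the array where the signal was highest.

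For miR-183 the raw median was 1056 and 900 at day 0, 924 and 852 at day 12, 940 and 972 at day 19, and 900 and 220 at day 26, which is 0.87 to 1.10 times the array median. Culture a of day 0 was the highest, with all 8 features between 992 and 1128 and in percentile 92.5 of the 710 miRNAs of its array, beside percentile 93.5 for miR-182 on the array of day 0 b. miR-183* lay at 0.81 to 1.02 and miR-96 at 0.92 to 1.06 times the array median. Raw medians of miR-183 on the 7 brighter arrays thus ran from 852 to 1056, while the VSN values of the same arrays ran from 4.47 to 7.96.

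**Figure D3:**
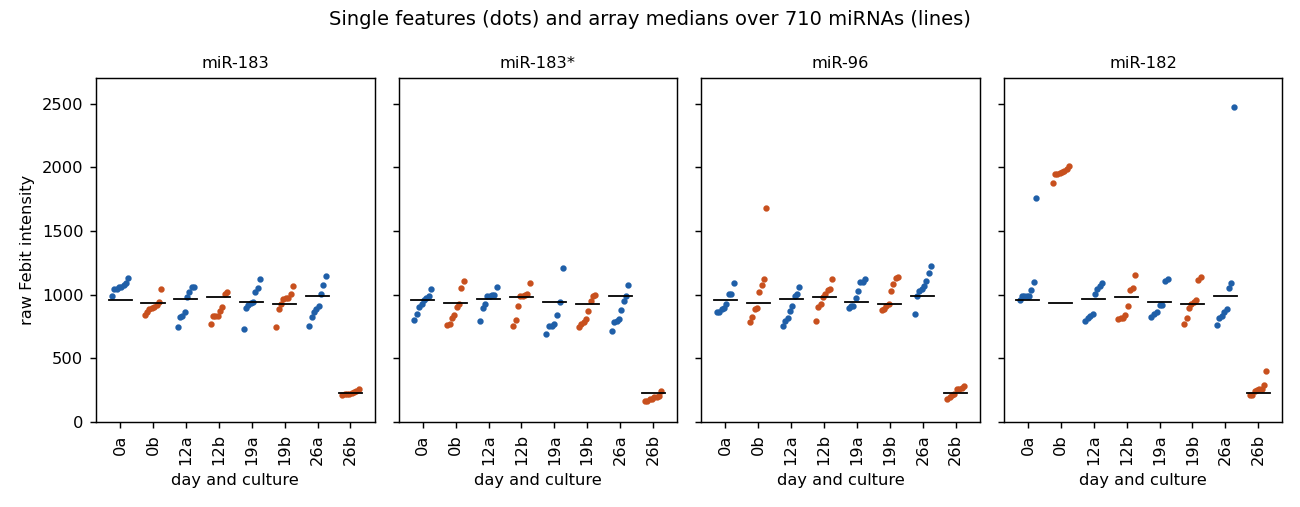
Raw Febit intensity of the single features of each member on each array (dots, blue for culture a and red for culture b), with the median over 710 miRNAs as a black line. miR-182 on the array of day 0 b has its 8 features at 1881 to 2009 against a line at 932, miR-183 on the array of day 0 a has them at 992 to 1128 against 960, and the array of day 26 b is dim as a whole (228).

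Since the same RNA was put on both arrays, the difference in change between platforms was tested within RNA samples. With VSN values, none of the 3 tested members differed at an adjusted p under 0.05 at days 12, 19 or 26, beside 19.2%, 7.84% and 9.28% of all tested miRNAs. The largest differences (Affymetrix minus Febit) were -3.56 ± 1.17 for miR-183 at day 19 (limma adjusted p = 0.0763, unadjusted 0.00739) and -2.76 ± 0.95 for miR-183* at day 12 (limma adjusted p = 0.0515, unadjusted 0.0101). For miR-182 the differences were 1.06, -1.84 and -0.94, each with an SE of 1.16, and the interval at day 12 ran from -1.40 to 3.52. With RMA minus non-VSN values in their place, 7 of the 9 member-and-day differences were called, all below 0, and the difference of miR-182 at day 12 turned from 1.06 to -2.24 (limma adjusted p = 0.123). The share of all tested miRNAs called with those values was not counted, so the 7 are not known to be particular to the members. Whether the platforms differed for these members thus depended on the normalizations compared.

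The detected members had closely similar profiles over the Affymetrix arrays and less so over the Febit arrays. Over the 8 Affymetrix VSN arrays, Pearson's r was 0.988 between miR-183 and miR-182, 0.976 between miR-183 and miR-183* and 0.988 between miR-183* and miR-182, and it was 0.67 to 0.69 between miR-96 and each of them. Over the 8 Febit VSN arrays r was 0.44 between miR-183 and miR-182, -0.23 between miR-183 and its partner arm, and -0.71 between miR-183* and miR-96. These values describe 8 arrays, 2 per day, that share the step between ES cells and cardiomyocytes.

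The tested miRNAs whose Affymetrix VSN values were most like those of miR-183, members left out, were miR-709 (r = 0.965 over 8 arrays), miR-714, miR-705, miR-466a-3p and miR-466e-3p. For miR-182 they were miR-714 (r = 0.959), miR-709, miR-705 and the ES-cell miRNAs miR-293 and miR-292-5p (r = 0.930 and 0.929). Over the 8 Febit VSN arrays the nearest to miR-183 were miR-200c (r = 0.970), miR-377, miR-433, miR-582-3p and miR-200a, and the nearest to miR-182 were miR-20a (r = 0.920), miR-467a, miR-297c*, miR-682 and miR-467c. No miRNA was in both platforms' lists for the same member.

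Within days 12 and 19, the detected members differed strongly between the duplicate cultures in the Affymetrix VSN values. At day 12 culture b exceeded culture a by 2.62 for miR-182, 2.22 for miR-183 and 2.27 for miR-183* (Affymetrix VSN, log2). At day 19 it exceeded culture a by 2.88, 2.80 and 2.10. At day 0 the differences were 0.39, 0.62 and 0.50, and at day 26 they were 0.89, 1.41 and 0.14. By absolute difference, miR-182 ranked 2 of 485 at day 12 and 3 at day 19, miR-183 ranked 7 and 5, and miR-183* ranked 6 and 23. With RMA values miR-182 ranked 2 and 4 and miR-183 ranked 7 and 21. There miR-183* differed by 0.84 and 0.51 and ranked 32 and 116.

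Only 4 of the 485 tested miRNAs were higher in culture b by at least 2 at both days, where 8 were at day 12 and 22 at day 19. They were the 3 tested members and miR-200c, an epithelial miRNA that represses ZEB factors. This threshold and the naming of miR-200c followed from the values themselves and carry no test. miR-200c had 7.17 and 6.83 at day 0, 3.88 and 8.07 at day 12, 3.69 and 6.55 at day 19, and 4.23 and 5.66 at day 26, so that culture b of day 12 lay above both ES cultures. With RMA values, 7 miRNAs were higher in culture b by at least 1 at both days, namely miR-182, miR-183, miR-200c, miR-290-5p, miR-292-3p, miR-292-5p and miR-293. The last 4 belong to the miR-290 to miR-295 cluster, the most abundant miRNAs of mouse ES cells.

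**Figure D4:**
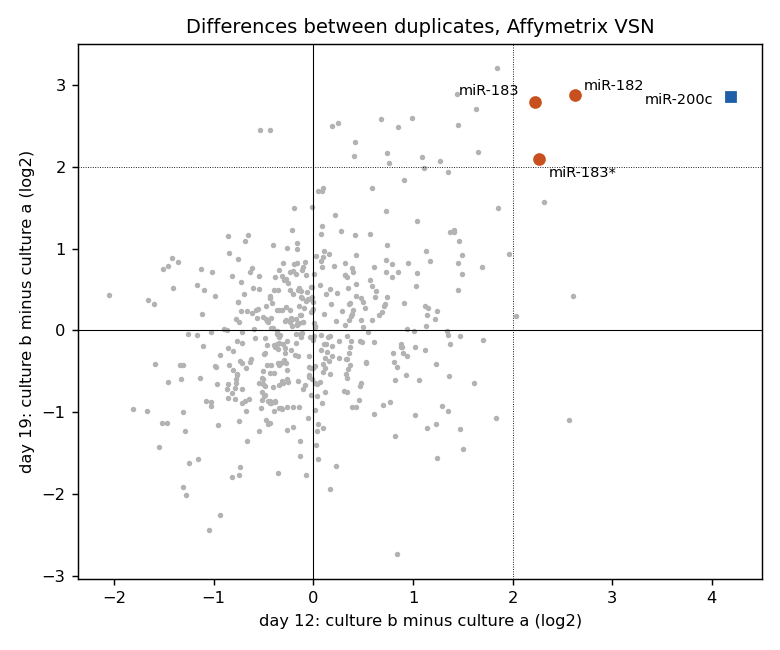
Difference between the duplicate cultures (b minus a, Affymetrix VSN, log2) at day 12 (horizontal) and day 19 (vertical) for the 485 tested miRNAs, with dotted lines at 2. The upper right field holds miR-182 (2.62 and 2.88), miR-183 (2.22 and 2.80), miR-183* (2.27 and 2.10) and miR-200c (4.20 and 2.86).

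With Febit VSN values, culture b minus culture a at day 12 was -0.76 for miR-182, -1.14 for miR-183 and -0.04 for miR-183*. At day 19 it was 0.50, 0.64 and 1.44, so culture b was the higher one for the 3 tested members at day 19 and for none of them at day 12. Of 11 tested ES-cell miRNAs on Affymetrix VSN, 9 were higher in culture b at day 0, 9 at day 12, 7 at day 19 and 8 at day 26, with median differences of 0.57, 1.04, 0.93 and 0.37. With RMA values the median differences at days 12 and 19 were 0.23 and 0.16. On the linear RMA scale, the summed signal of the 14 ES-cell miRNAs was 22028 and 21241 at day 0, 758 in culture a and 1646 in culture b at day 12, 427 and 861 at day 19, and 381 and 425 at day 26. The summed signal of the 6 epithelial miRNAs was 732 and 567 at day 0, 119 and 406 at day 12, 115 and 203 at day 19, and 116 and 137 at day 26. Culture b was higher for 5 of these 6 at day 12 and for 3 at day 19. The median differences were 1.20 and 0.11 with VSN values and 0.34 and -0.08 with RMA values. miR-200c, named above after its values were seen, differed by 3.38 and 2.08 with RMA values.

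For the 6 cardiomyocyte miRNAs the sum was 111 and 99.2 at day 0, 4006 and 3720 at day 12, 4307 and 2504 at day 19, and 4535 and 4840 at day 26, lower in culture b at days 12 and 19. On Febit VSN, culture b was higher for 2 of these 6 at day 12 and 3 at day 19, with median differences of -0.55 and 0.29. For the 11 tested ES-cell miRNAs it was higher for 5 and 7, with medians of -0.16 and 0.11. For the 6 epithelial miRNAs it was higher for 3 and 4, with medians of -0.59 and 0.17. The part of these lists in the changes of the cluster was not tested. Fewer cells of a type cannot be told apart from less RNA per cell in such bulk samples. Without culture b of day 12, the Affymetrix VSN change of miR-182 at day 12 was -3.58 and that of miR-183 was -3.06, and both were called (limma adjusted p = 0.0169 and 0.0381). Without culture a of that day the changes were -0.95 and -0.84 and neither was called (limma adjusted p = 0.575 and 0.651). In that fit the culture left is assumed to vary like the others. At day 19 miR-182 was called without either culture of that day (-5.29 without b and -2.42 without a), whereas miR-183 was called without b (-5.04) but not without a (-2.25, limma adjusted p = 0.0531).

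Marker lists were set against the labels of ES cells and cardiomyocytes. On Affymetrix VSN, 9 of 11 tested ES-cell miRNAs were called lower at each of days 12, 19 and 26, and on Febit VSN 6 of 11 were. miR-292-5p changed by -5.56, -7.54 and -7.95 on Affymetrix. On Affymetrix VSN 1 of the 11 was called higher at days 12 and 26, namely miR-302d (named after its values were seen), with changes of 3.21 and 2.36 (limma adjusted p = 0.00317 and 0.0158). Of the 6 cardiomyocyte miRNAs, 4, 3 and 5 were called higher on Affymetrix and 3, 5 and 5 on Febit, beside 26.2%, 22.7% and 29.5% of all tested miRNAs called higher in the Affymetrix fit and 5.77%, 5.36% and 10.5% in the Febit fit. Within this list miR-1, a miRNA of striated muscle, rose by 7.96, 8.44 and 9.73 on Affymetrix.

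Of the 6 epithelial miRNAs 1, 2 and 1 were called lower on Affymetrix VSN and none on Febit VSN, led by miR-205 with -3.08, -3.93 and -3.71 on Affymetrix. Among 4 tested miRNAs of nervous tissue and eye, where the cluster is known from photoreceptors, 1 was called lower (miR-124, changes of -3.50, -3.76 and -3.15) and 1 higher (miR-128, changes of 2.45, 2.11 and 3.42) at each day on Affymetrix VSN, beside 6.19%, 10.9% and 10.3% of all tested miRNAs called lower and 26.2%, 22.7% and 29.5% called higher. On Febit VSN miR-128 changed by -2.34 at day 12 (limma adjusted p = 0.0388), opposite to Affymetrix, and by 0.31 and 0.12 later, and miR-124 was called lower at day 19 (-3.22, limma adjusted p = 0.0418). On Affymetrix VSN, among 4 tested blood miRNAs 1 was called lower (miR-150) and 1 higher (miR-486), none of 2 endothelial miRNAs was called, and of 4 fibroblast miRNAs 1 was called higher at day 26. The shares of all tested miRNAs given above stand beside these counts too. On Febit VSN no blood miRNA was called, and miR-199a-3p of the fibroblast list was called lower at day 19 (-3.03, limma adjusted p = 0.014). At day 0 the summed linear RMA signal of the fibroblast miRNAs was 435 in culture a and 103 in culture b, while the log2 RMA values of miR-182 in them were 11.03 and 11.05.

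The nearest other miRNA genes on chromosome 6 were compared with the cluster. The arrays hold 9 mature miRNAs with a hairpin within 5 Mb of Mir183 (miR-592, both arms of miR-129 and of miR-335, and miR-29a and miR-29b with their star strands), of which 8 were tested. On Affymetrix VSN none was called lower and 4, 2 and 2 were called higher at days 12, 19 and 26, beside the 26.2%, 22.7% and 29.5% of all tested miRNAs. miR-29a, 893 kb from Mir183, had 2.42 and 1.55 at day 0 and 7.67 and 7.49 at day 26, and rose by 5.60 ± 0.47 (limma adjusted p = 1.97e-06). miR-335-5p, 572 kb from Mir183, had 2.95 and 2.31 at day 0 and 6.16 and 5.49 at day 26, and rose by 3.19 ± 0.52 on Affymetrix and 3.77 ± 0.74 on Febit (limma adjusted p = 0.000354 and 0.00865). miR-29b and miR-129 have a second hairpin elsewhere in the genome, so their signal may not be from chromosome 6 alone.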

How the data were processed

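Per the labels and the methods, the authors normalized the Affymetrix arrays both by RMA and by VSN, and deposited log2 values of each. The Febit log2 values were deposited in a background corrected, quantile normalized form (non-VSN) and in a VSN form, beside the raw intensity of every feature that the authors had scanned. The versions of RMA and affy are not given in the labels. Each data set was fitted with limma 3.58.1 (R 4.3.3), using 1 mean per day and moderated variances with 4 residual degrees of freedom. Benjamini-Hochberg adjustment ran over 485 miRNAs, of which 280 were listed as present on both platforms, 146 only on Affymetrix and 59 only on Febit. The other 123 shared miRNAs, miR-96 included, entered only a fit without this filter. The fit was tested on simulated data. Array data carry no read depth, and 2 cultures per day limit the precision. The methods describe the cultures of each day as independent experiments. The alternatives tried were other scalings, filters and variance settings, a block by letter, left-out arrays, and mean in place of median features.

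Members, lists and alternatives were chosen with earlier results of these data known. Named miRNAs are the members, the 5 most correlated with miR-183 and miR-182 per platform, those sharing a seed, those within 5 Mb of Mir183, and up to 3 per marker list, with miR-200c and those beside it added after their values were seen. The letters a and b were not used as pairs. Sequences and positions are from RefSeq (GRCm38.p6). Python 3.11.15 with matplotlib 3.10.9 and pandas 2.3.3 drew the plots.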

Additional observations from a re-analysis of the deposited data

How the results depend on the processing

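For Affymetrix VSN at day 12 the number of members called changed from 0 to 3 with arrays centred on their median, with quantile normalization, with only the arrays of the days compared, and with the letter as a replicate block, and ran from 0 to 3 when arrays were left out one at a time. At days 19 and 26 it ran from 0 to 3 over left-out arrays, and was 1 and 0 without day 0 a and 0 and 0 without day 0 b, against 3 and 3 with all arrays. At day 26 it was also 0 without day 26 a. For Affymetrix RMA at day 12 the range was 1 to 3, with 1 without day 0 b, and at days 19 and 26 it was 3 under every alternative run. For Febit VSN at day 12 the number changed from 1 to 0 with centring, with only the days compared, and with quantile normalized raw medians, and the range was 0 to 1. For Febit VSN at days 19 and 26, and for Febit non-VSN at days 12, 19 and 26, it was 0 to 1.

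Summed over days 12, 19 and 26, the number of members that differed between platforms was 0 with VSN values, 7 with RMA minus non-VSN values by title or with day 12 a and day 19 b exchanged, 2 with the replicate block, and 0 to 2 over left-out arrays. That platform difference at day 12 reversed from 0.03 to -1.83 by title and -1.55 exchanged for miR-183 (left-out arrays: -1.65 to 1.71), and from 1.06 to -2.24 and -2.06 for miR-182 (-0.63 to 2.75). At day 26 it ran from -2.09 to 0.22 for miR-182. The Febit VSN change of miR-183 at day 19 ran from -1.02 to 0.85, and the Febit non-VSN change of miR-183* from -0.21 to 0.31 at day 12 and from -0.73 to 0.44 at day 19. The cause was not tested. Of the alternatives in this section, the share of all tested miRNAs called was counted only for centred VSN arrays.

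The labels do not say that a letter marks a shared culture or batch across days. The difference between duplicates correlated across the pairs of days at -0.03 to 0.35 on Affymetrix VSN, -0.07 to 0.53 on Affymetrix RMA and -0.14 to 0.09 on Febit VSN. On Febit non-VSN it was -0.08 to 0.62 by title. There the arrays titled day 12 a and day 19 b follow each other's raw arrays. The differences taken by title at those days thus set day 12 against day 19 and do not compare duplicates. Not every pair was positive, and the replicate block is only an alternative. Signals of miR-96 and of most members on Febit are near the array median, which limits what could be seen there.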
